A study of Homo sapiens with 18 samples.

Results

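The SNAI, ZEB and TWIST genes and PRRX1 encode transcription factors that drive epithelial-mesenchymal transition (EMT). These 7 genes (SNAI1, SNAI2, ZEB1, ZEB2, TWIST1, TWIST2 and PRRX1) were picked out by symbol from 19289 symbols, and 11 of the 21111 probes read them. They were brought together around SNAI2, whose response to ASAP1 depletion differed between the cell lines in an earlier look at the same values. The response of SNAI2 is therefore given as a description with no test. Probes of the 6 other members were tested, among all probes, where they passed a minimum level. Within the lines, ZEB1 passed it in none, SNAI1 in SUM149PT alone and PRRX1 in BT549 and Hs578T alone. In these data SNAI2 was lower after ASAP1 depletion in BT549, about level in Hs578T and higher in SUM149PT. No tested probe of the other members met the limits of the study in any line. Those limits are an unadjusted p under 0.05 with an absolute Log2 FC over 1. Most members had far lower levels in SUM149PT than in the mesenchymal-like lines in control cells.

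In EMT, epithelial cells lose their cell-cell junctions and polarity and take on a motile, matrix-producing state. SNAI1, SNAI2 (also called Slug), ZEB1 and ZEB2 are zinc-finger repressors that bind E-box motifs in the promoters of junction genes such as CDH1, which encodes E-cadherin. TWIST1 and TWIST2 are basic helix-loop-helix factors and PRRX1 is a homeobox factor, and all of them are linked to mesenchymal identity. In breast tissue SNAI2 is also known from basal and progenitor cells.

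The cells were BT549 and Hs578T, which are mesenchymal-like triple-negative breast cancer (TNBC) lines, and SUM149PT, a basal-like TNBC line. Each line was transfected for 72 h with 50 nM siRNA, either a SMARTpool against ASAP1 (siASAP1) or a control pool (siCtrl), which gave 6 groups of 3 libraries that the study calls biological triplicates. ASAP1 encodes an Arf GTPase-activating protein. RNA was read by TempO-Seq, in which a pair of detector oligos is ligated on each transcript and sequenced, so a level is a count for 1 probe and levels of different probes cannot be set against each other as transcript amounts.

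Reads per library ranged from 4.63 M to 12.5 M, with a median of 6.63 M, and all levels here are normalized counts (reads over the library's size factor). The library labelled SUM149PT siCtrl replicate 2 went against its label, with an ASAP1 level of 189 beside 1087 and 1314 in the other SUM149PT siCtrl libraries and 184 to 468 in the siASAP1 ones. The Log2 FC (siASAP1 minus siCtrl) of ASAP1 was -0.75, -0.98 and -1.16 for BT549, Hs578T and SUM149PT in turn, with exact permutation p of 0.1, 0.1 and 0.3 (two-sided), 0.1 being the smallest that 3 against 3 libraries allow. The line labels were checked on markers in siCtrl. EPCAM, an epithelial adhesion molecule, was at 29532 ± 8322 (SD, n = 3) in SUM149PT, 1.72 ± 0.69 in BT549 and 19.0 ± 7.29 in Hs578T. VIM, the intermediate filament vimentin, was at 2622 ± 545, 32100 ± 4506 and 151322 ± 59073 in the same order. CDH2, N-cadherin, did not follow this order, with 1733 ± 335 in SUM149PT and 325 ± 118 in BT549. The summed level of 8 leukocyte and endothelial markers was 0 to 8.50 in BT549, 13.9 to 46.9 in Hs578T and 25.6 to 103 in SUM149PT, and its part in the results was not tested. PECAM1 lay at 13.9 to 46.9 in Hs578T and 25.6 to 103 in SUM149PT but at 0 to 2.10 in BT549, and CD3E, CDH5 and VWF were at 0 throughout.

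The E-boxes bound by SNAI and ZEB factors read CAGGTG, or CACCTG on the other strand. The junction genes shown here hold them just before the RefSeq start (GRCh38.p14), and were taken as the list genes with the smallest p between the lines found in the promoter table with the motif. They are JUP (plakoglobin, a protein of desmosomes and adherens junctions), CLDN7 (a tight junction claudin) and DSP (desmoplakin). The stretches lie 61 to 32, 30 to 1 and 97 to 68 bases before the start, at chr17:41786008-41786037 (minus strand), chr17:7262479-7262508 (minus) and chr6:7541574-7541603 (plus). Each is written 5′ to 3′ on the strand of the gene, with the E-box letters in capitals.
JUP: ctggcccCACCTGccgagCAGGTGagcgca
CLDN7: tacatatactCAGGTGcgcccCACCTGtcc
DSP: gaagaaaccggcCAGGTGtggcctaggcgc
In siCtrl cells the log2 level of these genes in SUM149PT was above the mean of BT549 and Hs578T by 8.13, 9.83 and 8.22. These genes were chosen by the p of this same contrast, so large differences were fixed by the choice. JUP was at 0 in BT549 and Hs578T siCtrl and CLDN7 at 0 and 4.20, so both passed the minimum level through SUM149PT alone.

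The motif was searched on both strands in the 250 bases before the start, and its 2 spellings cannot overlap each other. The list of 29 epithelial genes was made of known targets of SNAI and ZEB repression, so its share is not independent of that choice. Of these, 17 were found in the RefSeq promoter table, and 11 of the 17 held the motif (64.7%). The share over all 27305 genes in the table was 20.6%, and it was 3 of 18 (16.7%) for a list of 30 mesenchymal genes. Of the members, PRRX1, ZEB1, ZEB2 and TWIST2 were in the table, and ZEB1 held the motif in 2 of its 7 start windows. A match of letters is no evidence that a factor binds there, and these counts carry no test.

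The members lie at separate loci in the GRCh38 annotation (GENCODE 29), each as a protein-coding gene. PRRX1 lies on the plus strand of chr1:170662728-170739419. ZEB2 and TWIST2 share a chromosome, at chr2:144364364-144524583 (minus) and chr2:238848032-238910543 (plus). TWIST1 spans chr7:19020991-19117672 (minus) and SNAI2 chr8:48917604-48921740 (minus). ZEB1 spans chr10:31318495-31529814 (plus) and SNAI1 chr20:49982999-49988886 (plus). The deposited table gives no probe sequences, so the exon or UTR that each probe reads is not given here, and for the near-identical TWIST1 and TWIST2 cross-reading could not be checked.

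SNAI2 was read by 2 probes, of which SNAI2_24257 gave 46 to 8374 reads in every library. In BT549 its levels were 1874, 1392 and 1754 in the siCtrl libraries and 643, 563 and 483 in the siASAP1 libraries. All siASAP1 libraries of BT549 were thus below all siCtrl ones, and the means were 563 ± 80.0 and 1673 ± 251 (SD, n = 3 each). The Log2 FC was -1.57 (SE 0.34), which is 2.97-fold lower, and 8.21% of the 9666 probes tested in BT549 had a larger absolute Log2 FC. Leaving out any 1 library kept it between -1.70 and -1.46. In bulk lysates a smaller share of cells with SNAI2 and less SNAI2 RNA per cell cannot be told apart.

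In Hs578T, the line with the highest SNAI2 level, the siCtrl libraries were at 4698, 6253 and 4786 and the siASAP1 libraries at 5200, 4842 and 4807. The groups overlapped, and the Log2 FC of -0.07 (SE 0.22) took the other sign, 0.04, when libraries were scaled by their totals. In SUM149PT, the line with the lowest level, the siCtrl libraries were at 110, 75.6 and 73.5 and the siASAP1 libraries at 234, 237 and 244. All siASAP1 libraries of SUM149PT were above all siCtrl ones, the opposite order to BT549. The means were 239 ± 5.27 and 86.4 ± 20.6, the Log2 FC was 1.48 (SE 0.43), and 18.5% of the 10078 probes tested in SUM149PT had a larger absolute Log2 FC. The library labelled SUM149PT siCtrl replicate 2 (75.6) lay with the other siCtrl libraries for this probe, and without it the Log2 FC was 1.396. Groups that did not overlap, in either direction, were found for 13.9% of all probes tested in BT549, 12.1% of those in Hs578T and 17.3% of those in SUM149PT.

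As the directions were opposite, the common Log2 FC of SNAI2_24257 over the 18 libraries was near nil (-0.05, SE 0.32). The response in SUM149PT exceeded that in BT549 by 3.05 on the log2 scale, and that in Hs578T exceeded BT549 by 1.497. These differences are the ones by which the gene was chosen, and no test of them is given.

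The probe SNAI2_6603 gave far fewer reads. In BT549 its levels were 125, 116 and 107 in siCtrl and 70.2, 9.44 and 16.4 in siASAP1, a Log2 FC of -2.32 (SE 0.70) with no overlap. In Hs578T it varied widely between libraries, at 404, 1036 and 153 in siCtrl and 436, 535 and 244 in siASAP1, with a Log2 FC of -0.06 (SE 0.61) that turned to 0.06 under scaling by library totals. In SUM149PT it gave 0 to 16 reads and was below the minimum mean level of 10 for a test, with levels of 0, 14.6 and 9.59 in siCtrl and 3.97, 0 and 15.8 in siASAP1. Lower levels in BT549 were thus seen with both probes. The rise in SUM149PT was seen with SNAI2_24257 alone, since SNAI2_6603 gave 22 reads in the siCtrl libraries together and 15 in the siASAP1 libraries.

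**Figure D1:**
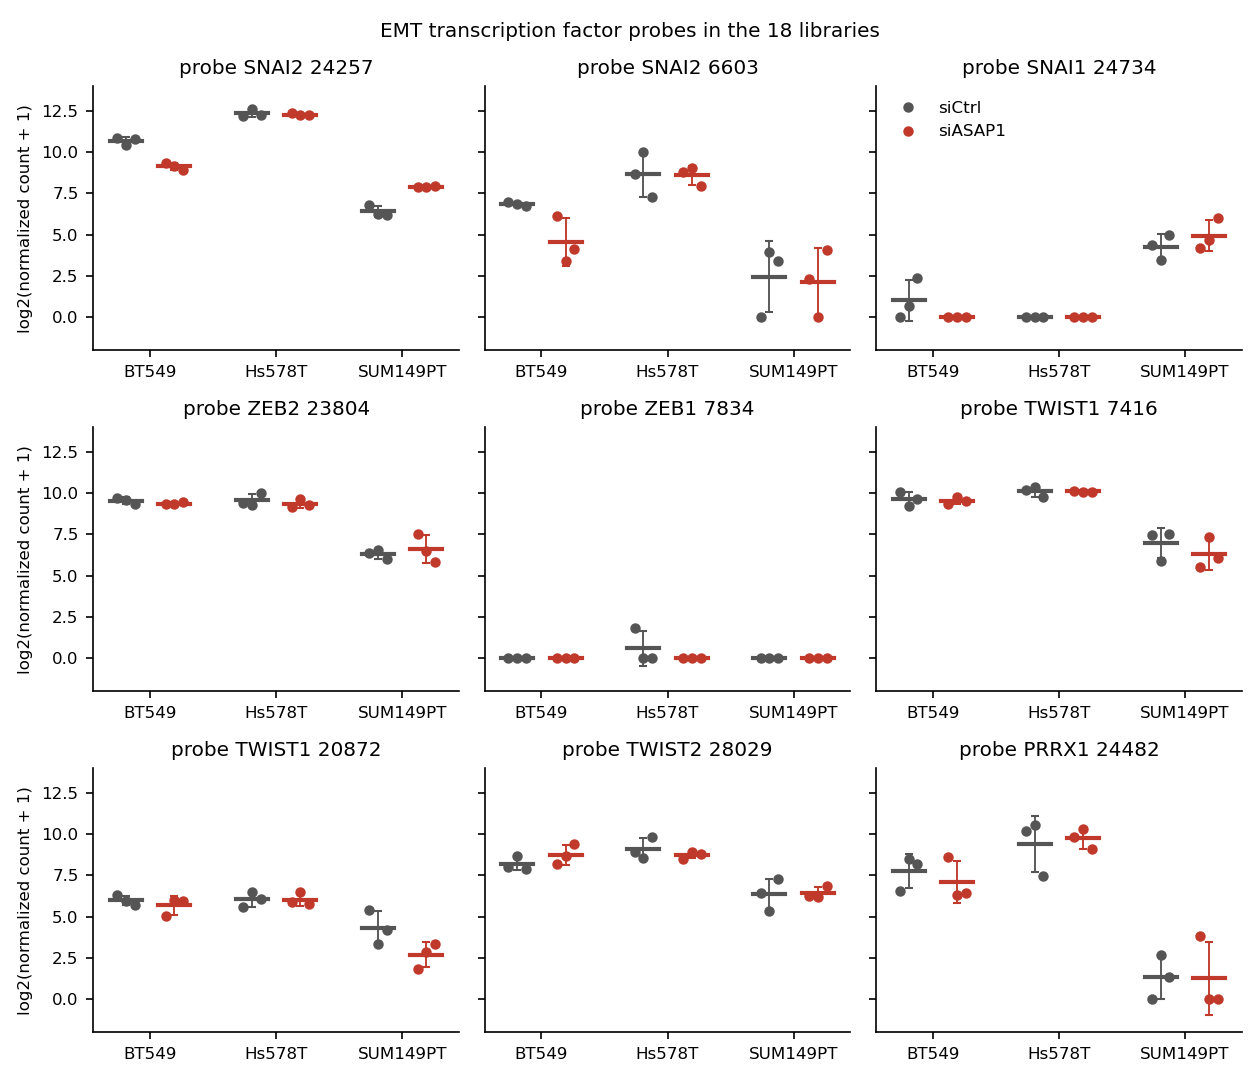
Levels of 9 probes of the EMT transcription factors by cell line, as log2 (normalized count + 1), in siCtrl (grey) and siASAP1 (red) libraries. Each point is 1 library, and bars show the mean ± SD of 3 libraries. SNAI2_24257 was lower after siASAP1 in BT549 (1673 to 563) and higher in SUM149PT (86.4 to 239), whereas the groups of ZEB2, TWIST1_7416 and TWIST2 overlapped in every line.

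Among the zinc-finger factors, ZEB2 showed no such pattern. Its levels in BT549 were 847, 780 and 638 in siCtrl and 636, 638 and 698 in siASAP1, and in Hs578T they were 662, 630 and 1034 against 570, 789 and 621. In SUM149PT they were 81.5, 94.7 and 62.3 against 183, 89.7 and 55.2. The groups overlapped in every line. The Log2 FC was -0.19 (95% CI -0.94 to 0.56) in BT549, -0.21 (-0.87 to 0.45) in Hs578T and 0.30 (-1.05 to 1.65) in SUM149PT.

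The bHLH factor TWIST1 was read by TWIST1_7416 at 1064, 605 and 782 in BT549 siCtrl and 657, 877 and 732 in siASAP1, a Log2 FC of -0.09 (95% CI -0.89 to 0.72). Its Hs578T levels were 1165, 1336 and 862 against 1140, 1078 and 1074, with a Log2 FC of -0.01 (-0.59 to 0.57). In SUM149PT they were 176, 59.2 and 182 against 44.98, 160 and 65.7, with a Log2 FC of -0.66 (-2.25 to 0.93). The siCtrl and siASAP1 libraries of each line overlapped, and the low SUM149PT siCtrl value was that of the library labelled replicate 2. Without it the Log2 FC in SUM149PT was -1.19 (limma, adjusted p = 0.26).

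The probe TWIST1_20872 had levels of 41.5, 9.11 and 17.6 in SUM149PT siCtrl and 2.65, 6.41 and 9.20 in siASAP1, the latter from 2 to 7 reads per library. Its Log2 FC of -1.62 (SE 1.06) was the lowest of the other members in any line, with an unadjusted p of 0.17 and an adjusted p of 0.65 (limma). When all 18 libraries shared 1 estimate of the spread, that p was 0.017 (adjusted 0.17), so that this probe then met the limits of the study. Without the library labelled SUM149PT siCtrl replicate 2 (9.11, within the siASAP1 range) the Log2 FC was -2.11 (limma, adjusted p = 0.29). The groups of TWIST1_20872 also overlapped in BT549 (51.9 to 77.4 in siCtrl, 32.0 to 64.2 in siASAP1) and in Hs578T (46.4 to 89.8 and 53.3 to 87.9).

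TWIST2, read by TWIST2_28029, was at 261, 408 and 241 in BT549 siCtrl and 292, 407 and 678 in siASAP1, a Log2 FC of 0.55 (95% CI -0.42 to 1.52). The Hs578T levels were 486, 370 and 893 against 361, 475 and 449, and those of SUM149PT were 84.4, 40.1 and 153 against 74.1, 71.8 and 117. The groups overlapped in all lines, with a Log2 FC of -0.35 (SE 0.36) in Hs578T and 0.08 (SE 0.62) in SUM149PT. The other TWIST2 probe, TWIST2_12032, was silent apart from 21 reads in 2 libraries, so the probes of TWIST2 disagree on whether it is present.

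PRRX1, the homeobox member, varied more between replicates than the treatment moved it. Its BT549 levels were 93.6, 358 and 288 in siCtrl and 386, 80.2 and 84.0 in siASAP1, and its Hs578T levels were 1159, 1522 and 177 against 899, 1284 and 544. The highest Hs578T siCtrl library was 8.59-fold above the lowest. The Log2 FC was -0.63 (95% CI -2.18 to 0.92) in BT549 and 0.33 (SE 0.71) in Hs578T. BT549 siASAP1 replicate 1 alone was high, and without it the Log2 FC was -1.37 and PRRX1 met the limits of the study. SUM149PT gave 0 to 10 reads of PRRX1 and was below the minimum for a test.

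SNAI1 and ZEB1 were at or near the floor in most libraries. SNAI1_24734 gave no read in the 6 Hs578T libraries and the 3 BT549 siASAP1 libraries, and 0, 1 and 6 reads in BT549 siCtrl. In SUM149PT it was at 20.02, 10.02 and 30.4 in siCtrl and 17.2, 24.4 and 63.1 in siASAP1, which overlapped, with a Log2 FC of 0.67 (95% CI -1.23 to 2.58). It was 0.27 without the library labelled SUM149PT siCtrl replicate 2, and 0.15 and 1.06 without siASAP1 replicates 3 and 1. SNAI1 was thus the member with its higher level in the basal-like line. Against a floor of 3 reads over a group, its SUM149PT level was at least 20.7-fold higher than that of Hs578T in siCtrl, and at least 38.1-fold and 41.2-fold higher than those of BT549 and Hs578T in siASAP1. SNAI1_6602 gave 14 reads in 3 libraries, all of SUM149PT. ZEB1, read by ZEB1_7834, gave 3 reads in Hs578T siCtrl replicate 1 and none in the other 17 libraries, so that no change of ZEB1 could be measured with this probe.

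**Figure D2:**
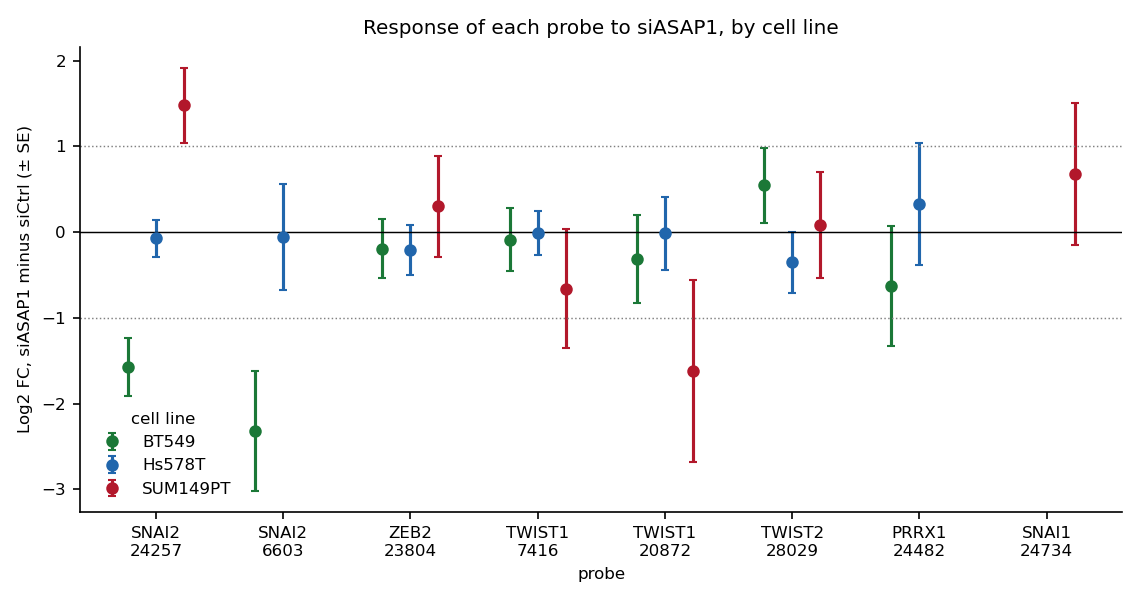
Log2 FC (siASAP1 minus siCtrl, ± SE) of the probes of the EMT transcription factors that passed the minimum level in each line, from limma fits of 6 libraries. SNAI2_24257 lies at -1.57 in BT549, -0.07 in Hs578T and 1.48 in SUM149PT, and the values of SNAI2 carry no test.

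By the limits of the study none of the 5 probes of other members tested in each line was called. Of all probes tested, 6.97% met those limits in BT549, 2.78% did in Hs578T and 9.56% did in SUM149PT. None of the 5 probes reached an unadjusted p under 0.05 with limma or with voom weights, where 7.8%, 5.28% and 10.2% of all probes did with limma. Over the 18 libraries, where 1.74% of all probes had an adjusted p under 0.05, none of the 5 tested probes did, and none had an unadjusted p under 0.05 with either tool. Nor did any of the 5 show a response that differed between lines by an adjusted or unadjusted p under 0.05, with adjusted p of 0.96 to 0.99 (limma). Of all probes, 0.00955% and 6.22% did by the adjusted and the unadjusted p. The reach of this last comparison is limited, since 43.5% of 200 simulated differences of 2 on the log2 scale were recovered among 10491 probes, and 94.5% of differences of 3 among 10437. The simulated probes shared 1 spread (dispersion 0.111), and the changed ones were well read in every line. PRRX1, near 0 in SUM149PT and with a log2 SD of 1.68 in Hs578T siCtrl, lies outside that setting. So does TWIST1_20872, with a mean level of 6.08 in SUM149PT siASAP1. In SUM149PT siCtrl TWIST1_7416 and TWIST2_28029 also spread widely, with log2 SDs of 0.91 and 0.96. These shares therefore do not give the recovery for such members.

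For SNAI2_24257 in siCtrl cells the order was Hs578T (5246 ± 873), BT549 (1673 ± 251) and SUM149PT (86.4 ± 20.6), and each step passed an adjusted p of 0.05 (Benjamini-Hochberg over all probes). SUM149PT was 19.4-fold below BT549 (log2 difference -4.27, SE 0.30, limma adjusted p = 1.0e-05) and 60.7-fold below Hs578T (-5.92, adjusted p = 1.6e-06). BT549 was 3.14-fold below Hs578T (-1.65, adjusted p = 0.0047). Of all probes, 18.2%, 20.2% and 13.9% had an adjusted p under 0.05 in these 3 contrasts. The siCtrl libraries also enter the response that chose SNAI2, so its tests here are not independent of that choice.

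After siASAP1 the order of SNAI2 was kept, at 4950 ± 218, 563 ± 80.0 and 239 ± 5.27, but the steps had other sizes. SUM149PT was now 2.36-fold below BT549 (log2 difference -1.22, SE 0.24) and 20.7-fold below Hs578T (-4.37). BT549 was 8.80-fold below Hs578T (-3.14). These siASAP1 differences hold the other part of the response that chose the gene, and they are given with no test.

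ZEB2 was about level in BT549 (755 ± 107) and Hs578T (776 ± 225) in siCtrl, a log2 difference of -0.01 (SE 0.34), and lower in SUM149PT (79.5 ± 16.3). SUM149PT was 9.49-fold below BT549 (-3.24, limma adjusted p = 0.00011) and 9.75-fold below Hs578T (-3.25, adjusted p = 9.1e-05). The siASAP1 libraries, which share no sample with these, gave -2.75 and -2.74 (adjusted p = 0.00078 and 0.00069). In siASAP1 22.3% and 28.4% of all probes were called for SUM149PT against BT549 and Hs578T, and 19.9% for BT549 against Hs578T.

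TWIST1_7416 had the same order, with SUM149PT (139 ± 69.3) 5.87-fold below BT549 (817 ± 232, log2 difference -2.67, limma adjusted p = 0.0028) and 8.06-fold below Hs578T (1121 ± 240, -3.14, adjusted p = 0.00090). In siASAP1 these differences were -3.25 and -3.80. TWIST1_20872 was lower in SUM149PT by 1.67 and 1.73 on the log2 scale in siCtrl, which did not pass (adjusted p = 0.096 and 0.079), and by 2.98 and 3.34 in siASAP1, which did (0.0066 and 0.0029). TWIST2_28029 was 3.27-fold and 6.29-fold lower in SUM149PT (92.6 ± 57.1) than in BT549 (303 ± 91.4) and Hs578T (583 ± 274), with adjusted p of 0.039 and 0.0051 in siCtrl and 0.0015 and 0.0014 in siASAP1. The siCtrl call of TWIST2_28029 against BT549 was lost in 6 of 9 fits that each left out 1 library. For TWIST1 and TWIST2 the step between BT549 and Hs578T was within the spread, with log2 differences of -0.47 and -0.88 in siCtrl (adjusted p = 0.59 and 0.35).

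PRRX1 had its 2 highest groups in Hs578T (953 ± 696 in siCtrl) and lay lower in BT549 (247 ± 137), a log2 difference of -1.67 with an adjusted p of 0.32. In SUM149PT siCtrl it was at 0, 5.47 and 1.60. The differences of SUM149PT from BT549 (-6.39) and Hs578T (-8.05) had adjusted p of 0.0010 and 0.00021 (limma), and the same holds for SNAI2_6603 (-4.41 and -6.19, adjusted p = 0.013 and 0.0017). Both probes passed the minimum level through the mesenchymal-like lines alone, and so they had to differ. Without the library labelled SUM149PT siCtrl replicate 2 the siCtrl differences of SNAI2_24257, ZEB2, TWIST1_7416 and TWIST2_28029 given as called were called again, from -1.36 (TWIST2_28029 against BT549) to -5.84 (SNAI2_24257 against Hs578T).

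**Figure D3:**
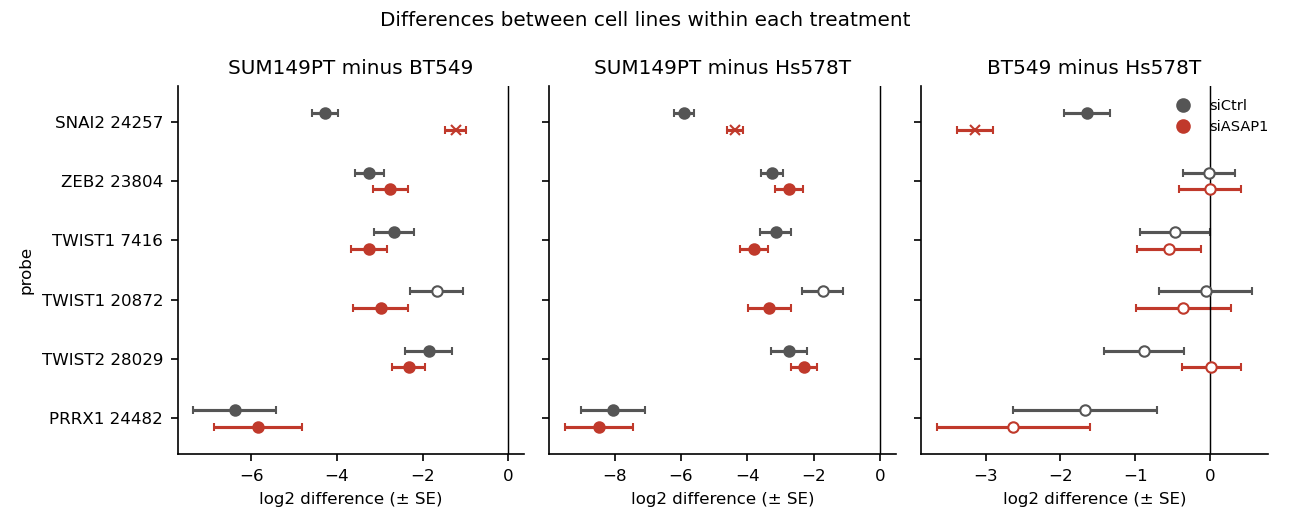
Differences between cell lines in the log2 level of 6 member probes, ± SE, within siCtrl (grey) and within siASAP1 (red), from limma fits of 9 libraries each. Filled points have an adjusted p under 0.05, open points do not, and crosses (SNAI2_24257 in siASAP1) carry no test. PRRX1 passed the minimum level through the mesenchymal-like lines alone. SUM149PT lay below both mesenchymal-like lines in each row, and between BT549 and Hs578T the filled point is that of SNAI2_24257 in siCtrl (-1.65). The siCtrl values of SNAI2 also enter the response that chose it.

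The other genes of the EMT programme were taken from 8 lists with 157 genes, 1 probe a gene. In siCtrl cells 119 of them could be tested for SUM149PT against the mean of BT549 and Hs578T, and 62 had an adjusted p under 0.05 (limma), where 22% of all probes did (10.5% higher and 11.5% lower in SUM149PT). Genes known as targets of SNAI and ZEB repression were mostly higher in SUM149PT, 19 of 22 tested, with a median log2 difference of 6.13 beside -0.00 for all probes. They included EPCAM (11.98), ST14 (10.38, the protease matriptase), MAL2 (9.17, apical transport) and CLDN4 (7.18, a claudin). MUC1, a surface mucin, was lower (-3.21). CDH1, the classic target, was at 98.7 ± 13.5 in SUM149PT siCtrl and gave no read in any BT549 or Hs578T library. Genes like CDH1 passed the minimum level through 1 side of the contrast alone and had to differ, so these counts are a description.

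Of the epithelial transcription and splicing factors, 7 of 9 tested were higher in SUM149PT and 1 was lower, with a median of 3.98. OVOL2 (9.69) and OVOL1 (8.04) are zinc-finger factors that hold epithelial identity, GRHL2 (6.55) is a grainyhead factor of epithelia and KLF5 (3.98) a Krüppel-like factor. KLF4, of the same family, was lower (-4.64). Of the mesenchymal genes 19 of 27 tested were lower and 3 were higher, with a median of -3.59. The collagens COL1A2 (-12.34) and COL3A1 (-11.03), the matrix protein gene SPARC (-11.26) and the surface antigen THY1 (-8.48) were lower. TNC (2.94), MMP2 (2.14) and CD44 (1.496), a matrix protein, a matrix protease and a hyaluronan receptor, were higher. OVOL2 was at 0.84 and 0.33 in BT549 and Hs578T siCtrl, and COL1A2 and SPARC at 3.14 and 4.66 in SUM149PT siCtrl. Such genes passed the minimum level through 1 side alone and had to differ, so these counts are a description too.

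In the remaining lists 11 of 60 tested genes were called, where 22% of all probes were. Of 14 other EMT transcription factors tested, SOX9 (2.71) and HMGA2 (2.06) were higher in SUM149PT and PRRX2 (-4.22), the paralogue of PRRX1, and FOXC2 (-2.47) were lower, with a median of -0.06. Of 17 corepressors and partners 3 were higher, namely ID1 (2.67), RCOR1 (1.81) and SMARCA4 (1.41). Of 12 genes whose products modify or degrade these factors, PRKD1 (2.19) was higher. Of 17 upstream signals 3 were higher, TGFB2 (3.57), BMP4 (2.37) and TGFBR1 (1.52). Their called genes, 12 together with PECAM1 (3.85), numbered 22 without the library labelled SUM149PT siCtrl replicate 2 and 8 without SUM149PT siCtrl replicate 1.

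**Figure D4:**
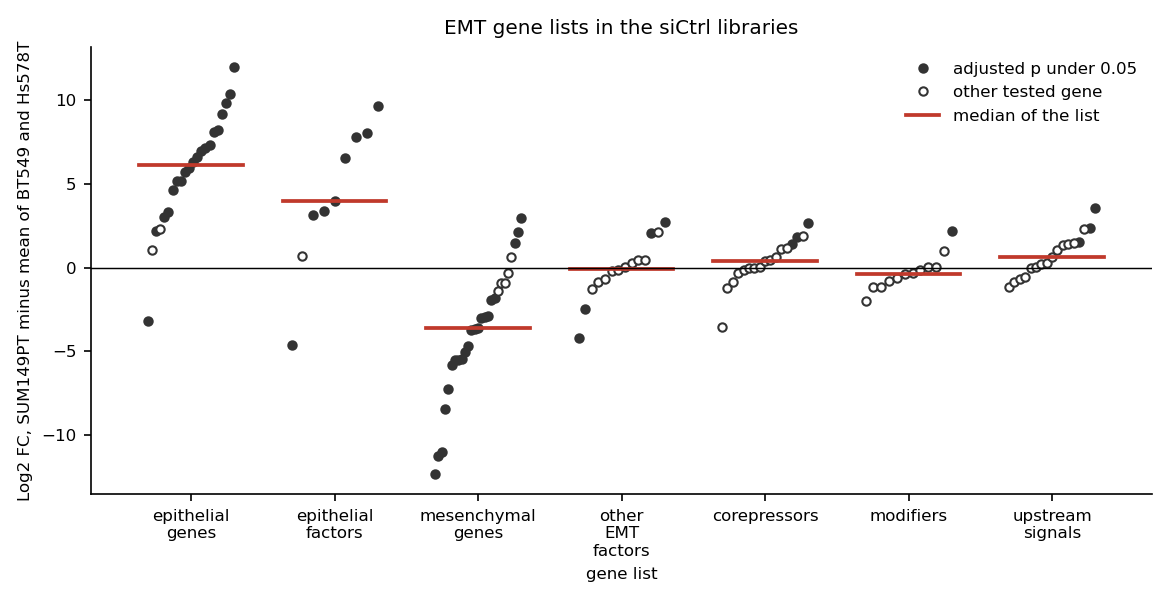
Log2 difference between SUM149PT and the mean of BT549 and Hs578T in siCtrl libraries for the tested genes of 7 EMT lists. Each point is 1 gene, filled at an adjusted p under 0.05, and the red line is the median of the list. Epithelial genes lie mostly above 0 (median 6.13) and mesenchymal genes mostly below (median -3.59), while the lists of partners, modifiers and signals lie around 0. Genes that passed the minimum level through 1 side alone had to differ.

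After siASAP1, 13 list genes rose and 5 fell among 92 tested in BT549 by the limits of the study (19.6%), 7 rose and 1 fell among 98 in Hs578T (8.16%), and 14 rose and 2 fell among 113 in SUM149PT (14.2%). Of all probes, 3.28% rose and 3.69% fell in BT549, 1.34% and 1.44% did in Hs578T, and 5.27% and 4.29% did in SUM149PT. In both directions together these were 6.97%, 2.78% and 9.56%. The lists were chosen with earlier results of these data known, so their shares are a description. No probe had an adjusted p under 0.05 within a line (limma), although 754, 502 and 1025 probes had an unadjusted p under 0.05. In SUM149PT 25 rose and 8 fell without the library labelled siCtrl replicate 2, and in BT549 18 rose and 18 fell without siASAP1 replicate 1.

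In BT549, where SNAI2 was lower, 1 of 8 epithelial targets tested met the limits. This was the tight junction gene CLDN1, which rose from 30.3 ± 18.7 to 308 ± 78.9 (Log2 FC 3.55, unadjusted p = 0.00017, adjusted p = 0.15 by limma). The epithelial factor KLF4 rose too (1.28). Of 27 mesenchymal genes 6 rose, among them NT5E (2.10), which encodes the surface enzyme CD73, and the membrane protease gene MMP14 (1.71). Another 3 fell, among them the cadherin gene CDH11 (-1.47) and COL3A1 (-1.64). The chromatin protein gene HMGA2 (2.61) and the AP-1 subunit gene FOSL1 (1.33) rose and the bHLH gene TCF4 fell (-1.68). The cytokine gene IL6 (2.68), the TGF-beta antagonist gene SMAD7 (1.48) and the deacetylase gene HDAC1 (1.28) rose, and CTNNB1, which encodes beta-catenin, fell (-1.01). List medians in BT549 were 0.01 for the epithelial targets and 0.13 for the mesenchymal genes, beside -0.00 for all probes.

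In SUM149PT, where SNAI2 was higher, 5 of 25 epithelial targets tested rose and none fell, with a median of 0.34 beside 0.09 for all probes. LAMA3, a laminin chain, rose from 396 ± 136 to 4263 ± 705 (Log2 FC 3.47, adjusted p = 0.067 by limma), and PLEKHA7, of adherens junctions, by 1.88. CDH1 was also among them, at 94.4, 114 and 87.9 in siCtrl and 229, 263 and 210 in siASAP1, without overlap (Log2 FC 1.24, unadjusted p = 0.019, adjusted p = 0.41). CDH1 lies outside the naming rule and was named after its values were seen, as the best known target of SNAI2. Higher SNAI2 and higher CDH1 were thus measured in the same libraries. Of 12 epithelial factors tested 3 rose, among them GRHL1 (2.58) and EHF (1.92), and the median of that list was 1.26.

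Of 18 mesenchymal genes tested in SUM149PT 1 rose and 2 fell, with a median of 0.086 beside 0.087 for all probes. FN1 (fibronectin) rose from 854 ± 111 to 4387 ± 928 (Log2 FC 2.35), VIM fell by 1.48 on the log2 scale and LOX, a collagen crosslinking enzyme, by 1.39. FOSL1 (1.502) and RUNX1 (1.39) rose among 11 other EMT transcription factors tested. FBXO11 (2.10), a ubiquitin ligase subunit that targets SNAI proteins, rose among 12 modifiers, and IL6 and TGFBR1 (1.19) among 17 upstream signals. IL6 rose from 31.2 ± 0.99 to 442 ± 42.0 (Log2 FC 3.78, adjusted p = 0.067).

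In Hs578T, where SNAI2 was about level, 1 of 8 epithelial targets tested rose, and 1 of 4 epithelial factors. They were EPCAM (1.42, from 19.0 ± 7.29 to 54.8 ± 26.8) and KLF5 (1.27). Of 28 mesenchymal genes tested 3 rose, among them the matrix genes TNC (1.57) and COL5A1 (1.23). The receptor kinase gene AXL fell (-1.28). HMGA2 (1.13), of 13 other EMT transcription factors tested, and TGFBR1 (1.06), of 16 upstream signals, rose as well.

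The genes most like SNAI2_24257 were ranked by Pearson's r over the 18 libraries after the mean of each line was taken off, among 7008 probes with a mean level of at least 50. The libraries share their treatment and size factors, and the values carry no test. The ranked values hold the response to siASAP1, so responses like or opposite to that of SNAI2 follow largely from the ranking. The highest r were those of ATP7A (0.84, a copper transporter), DUSP22 (0.80, a phosphatase), ANXA10 (0.80, an annexin), CRISPLD2 (0.79, a secreted protein) and PPL (0.78, the desmosomal protein periplakin). ATP7A had Log2 FC of -0.95, -0.20 and 1.60 in BT549, Hs578T and SUM149PT, and CRISPLD2 had -2.61, 0.06 and 1.11. PPL gave no read in Hs578T or in BT549 siASAP1, and ANXA10 none in BT549 siASAP1 or SUM149PT siCtrl, so their r rest in part on libraries at 0.

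At the other end stood VIM (-0.80), ZNF367 (-0.79), ETV5 (-0.77), SPATA5L1 (-0.77) and PBX3 (-0.77). VIM had Log2 FC of 0.85, -0.33 and -1.48 in BT549, Hs578T and SUM149PT, the reverse order to SNAI2. ETV5, an ETS factor, had 1.35, -0.30 and -1.31. The second SNAI2 probe, SNAI2_6603, had an r of 0.28, and 21.5% of the ranked probes had a higher one. The other members had r of 0.51 for SNAI1_24734, most of whose BT549 and Hs578T libraries were at 0, 0.23 for ZEB2, 0.07 for PRRX1, -0.13 for TWIST1_7416, -0.27 for TWIST1_20872 and -0.28 for TWIST2_28029.

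**Figure D5:**
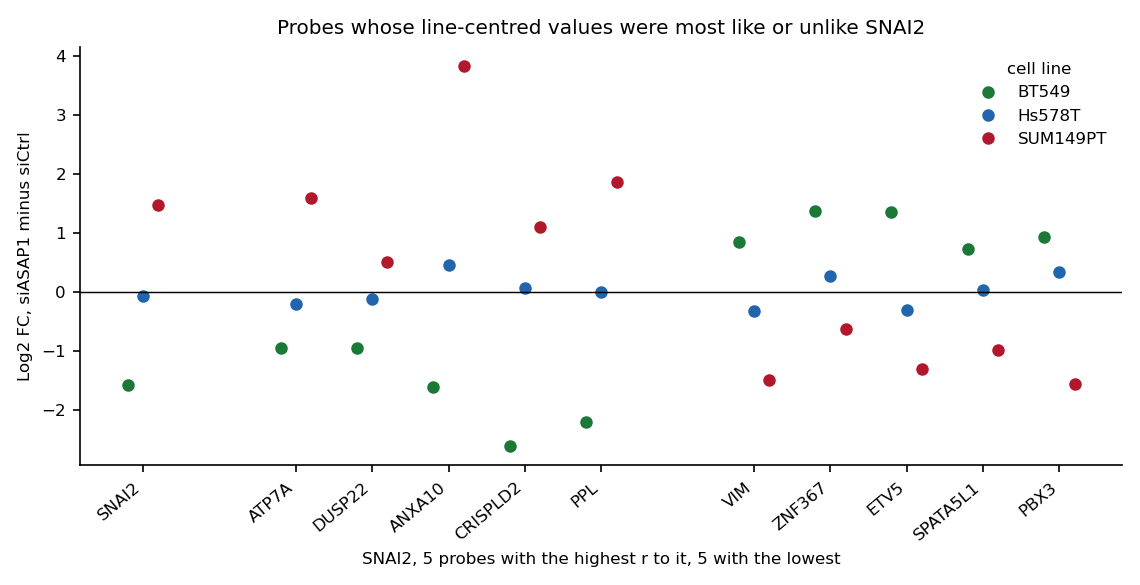
Log2 FC (siASAP1 minus siCtrl) in the 3 lines for SNAI2_24257 and the 5 probes most like it in each sign, from the mean log2 values of 3 libraries a group. The probes most like it are lowest in BT549, where CRISPLD2 is at -2.61, and those least like it are highest there, with VIM at 0.85 in BT549 and -1.48 in SUM149PT. These orders follow largely from the ranking.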

How the data were processed

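TempO-Seq libraries were made from lysates of the 18 transfected cultures, 3 for each line and siRNA. The authors converted, aligned and counted the reads with bcl2fastq and Bowtie and normalized them with DESeq2 (submitters' processing notes; versions and genome build are not given in the sources used here). The deposited log2 values are log2(reads over size factor + 1). Whole reads were recovered for 100% of values (tolerance 0.01), and 3241 probes had no read.

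Values were fitted with limma 3.58.1 (lmFit, eBayes with trend) in R 4.3.3, keeping probes whose normalized counts averaged 10 or more over the fitted libraries, without a replicate block. A Log2 FC or log2 difference is on the log2(value + 1) scale, with a pseudocount of 1, and understates the change of low probes. Folds between lines are ratios of mean normalized counts, so they can differ from the log2 difference beside them. Responses within a line used its 6 libraries and the limits of the study, as stated in the methods. Line differences used the 9 libraries of a treatment, and the common response and the interaction used all 18. All were called at a Benjamini-Hochberg adjusted p of 0.05. No p is given for SNAI2 where siASAP1 libraries enter, and its siCtrl tests are not independent of its choice. These limma fits take the place of a test on counts. No count test was run. Intervals come from the limma fits and measure the spread between libraries. Floors of 3 reads cover counting error only. P-values rest on the study's statement of biological triplicates.

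The members and lists were chosen with earlier results of these data known. No sequence of chromosome 8 is printed. Named list genes were those with the smallest p, up to 4 (lines) or 2 (response) in each direction, and those most like SNAI2 by r. Counts were simulated with 1 dispersion for every probe and 200 changed probes (log2 change 2). Of these, 99.5% were recovered for the BT549 response among 9641 probes and 93% for the siCtrl line difference among 10446. The changed probes were well read in every line, so these shares do not give the recovery for members with few reads or a wider spread. Alternatives were upper quartile scaling, scaling by library totals, no filter, a minimum of 50, a pseudocount of 0.1, voom weights, a replicate block, 1 fit of all libraries and leaving out each library. Python 3.11.15, pandas 2.3.3, scipy 1.17.1 and matplotlib 3.10.9 served for tables, exact tests and plots.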

Additional observations from a re-analysis of the deposited data

Results flagged for a closer look

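The Log2 FC of SNAI2_24257 had opposite signs in BT549 (-1.57, SE 0.34) and SUM149PT (1.48, SE 0.43), with every siASAP1 library below every siCtrl library in BT549 and above every one in SUM149PT. It is the difference by which the gene was chosen, and so no test of it is given.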

How the results depend on the processing

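Of 700 values recomputed under other settings, 667 kept their direction and side of the threshold, 11 changed sign, 12 lost a call or fell by over 1.5 times, 8 gained a call or rose by as much, and 2 moved with no test. The cause was not tested. Scaling by library totals raised the median Log2 FC of all probes by 0.11 in Hs578T and 0.21 in SUM149PT. Under it SNAI2_24257 was 1.69 in SUM149PT, 0.042 in Hs578T and 0.076 over the 18 libraries, and signs turned in Hs578T for TWIST1_7416 (0.11), TWIST1_20872 (0.098) and SNAI2_6603 (0.058), over the 18 libraries for ZEB2 (0.096), and for BT549 minus Hs578T in siCtrl for TWIST1_20872 (0.14) and ZEB2 (0.19). Upper quartile scaling turned TWIST2_28029 in SUM149PT to -0.022, and voom weights turned TWIST1_20872 in Hs578T to 0.038 and ZEB2 for BT549 minus Hs578T in siASAP1 to -0.0058. Voom weights also gave -0.31 for SNAI2_24257 over the 18 libraries. List genes that fell in BT549 were 3 with scaling by totals, and those that rose were 7 in BT549 and 4 in Hs578T at a minimum of 50. With all 18 libraries in 1 fit 1 probe of another member, TWIST1_20872, met the limits in SUM149PT. All probes that met them were then 1560 there, and in Hs578T 430 without a filter and 142 at a minimum of 50. With a pseudocount of 0.1 SNAI2_6603 lost its siCtrl call for SUM149PT against BT549 (adjusted p = 0.053). Upper quartile scaling gave TWIST2_28029 an adjusted p of 0.059 there, and the fit of all 18 libraries gave TWIST1_20872 an adjusted p of 0.045 for SUM149PT minus Hs578T in siCtrl. PRRX1 was called for BT549 minus Hs578T in siASAP1 with voom weights (adjusted p = 0.0083).

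Whether replicate numbers pair the samples was not settled. In 0 of 9 comparisons did every same-numbered pair correlate over 0.1 (10 of 27 pairs did, r from -0.65 to 0.41). Hs578T siASAP1 against siCtrl came nearest, with r of 0.099, 0.34 and 0.35. With the replicate number as a block, list genes that met the limits were 10 higher and 3 lower in BT549 and 5 higher and 1 lower in SUM149PT, all probes 435 in Hs578T and 351 in SUM149PT, and PRRX1 for BT549 minus Hs578T in siASAP1 had an adjusted p of 0.044.

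Leaving out each library gave 836 values, of which 734 kept direction and call and 48 changed sign. List genes that met the limits ranged from 6 to 18 higher and 3 to 18 lower in BT549, 2 to 9 and 0 to 3 in Hs578T, and 9 to 25 and 2 to 8 in SUM149PT. All probes that met them ranged from 325 to 2169, 158 to 634 and 501 to 2325 (highest without BT549 siASAP1 replicate 1, Hs578T siCtrl replicate 3 and the library labelled SUM149PT siCtrl replicate 2), and probes of other members from 0 to 1 in BT549. Between lines in siCtrl, epithelial genes and factors higher in SUM149PT numbered 22 to 26, mesenchymal genes lower 18 to 20, and called genes of other lists 8 to 22. Member probes called, those of SNAI2 included, numbered 5 to 6 and 6 to 7 for SUM149PT against BT549 and Hs578T in siCtrl. Signs turned within these ranges in BT549 for TWIST1_20872 (-0.48 to 0.0071) and TWIST1_7416 (-0.28 to 0.12). In Hs578T they turned for PRRX1 (-0.63 to 0.91), SNAI2_24257 (-0.15 to 0.061), SNAI2_6603 (-0.75 to 0.63), TWIST1_20872 (-0.26 to 0.21), TWIST1_7416 (-0.19 to 0.13), TWIST2_28029 (-0.63 to 0.0045) and ZEB2 (-0.35 to 0.017), and in SUM149PT for TWIST2_28029 (-0.41 to 0.54) and ZEB2 (-0.15 to 0.70). Over the 18 libraries they turned for PRRX1 (-0.49 to 0.063), SNAI2_24257 (-0.19 to 0.084), TWIST2_28029 (-0.047 to 0.23) and ZEB2 (-0.19 to 0.057), and for BT549 minus Hs578T for TWIST1_20872 (-0.30 to 0.17) and ZEB2 (-0.14 to 0.21) in siCtrl and TWIST2_28029 (-0.30 to 0.30) and ZEB2 (-0.091 to 0.14) in siASAP1. None of these values was called. Depth limits SNAI1, ZEB1, PRRX1 and SNAI2_6603 where they gave few reads.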
